A study of Apis mellifera with 15 samples.

Results

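Forager honey bees (Apis mellifera, adult workers) given thiacloprid at 25 ng per bee were compared with foragers given solvent without the compound. The comparison holds 10 of the 15 brain libraries of the study, 5 at 25 ng/bee and 5 of the solvent control, chosen by their sample titles. The other 5 libraries, from bees given 250 ng/bee, served to estimate the spread between libraries. Bees of all groups came from a site described as unpolluted, were held in PET bottles and took sucrose solution for 72 h, after which their brains were dissected. Each library was made from a pool of 5 brains, so a value is the mean of 5 animals and differences between single bees cannot be seen. Colony and strain are not given in the labels used here.

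Thiacloprid is a neonicotinoid insecticide. Neonicotinoids bind nicotinic acetylcholine receptors, the ligand-gated cation channels that carry most fast excitatory signalling in the insect brain, and keep them open where acetylcholine would be cleared by acetylcholinesterase. In bees these receptors are abundant in the antennal lobes and mushroom bodies, which serve smell, learning and memory, and cytochrome P450 enzymes break thiacloprid down. The comparison asks which brain transcripts differ at the lower of the doses given.

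The 25 ng/bee libraries held 8123655 to 10067138 counts and the control libraries 9226059 to 11500655. The 10 most abundant genes of each library took 21.2% to 33.9% of the counts at 25 ng/bee and 11.4% to 37.9% in the control. No library repeated another. Listed markers of neurons summed to 905 to 1172 CPM (counts scaled to library size) at 25 ng/bee and to 1017 to 1296 CPM in the control. Of 5 listed venom gland genes, Melt, Pla2, Apamin and Mcdp had at most 3 counts in all libraries of a group. The other, Acph-1, had 1.48 to 2.98 CPM at 25 ng/bee and 0.900 to 12.5 CPM in the control, a log2 fold change of -0.98. In bulk tissue, fewer cells of a type and less RNA per cell cannot be told apart.

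No gene passed the test at 25 ng/bee. In edgeR's quasi-likelihood F test (two-sided, all 15 libraries in the fit, Benjamini-Hochberg adjusted p under 0.05), 0 of 9560 tested genes passed (0%), and the smallest adjusted p was 0.998. Neither DESeq2 nor limma-voom called a gene, and their unadjusted p fell under 0.05 in 264 and 588 genes. In edgeR there were 235 such genes (2.46%), against an average of 478 if no gene differed. Of these, 101 (1.06%) were higher and 134 (1.4%) lower at 25 ng/bee. Over all tested genes, 4569 (47.8%) had a log2 fold change above 0 and 4991 (52.2%) below 0, with a median of -0.01.

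The intervals, whose width rests on the spread of all 15 libraries, show how large a difference that fit leaves room for. For 8385 genes (87.7%) the 95% interval of the fold change lay within 2-fold either way, and for 6420 genes (67.2%) within 1.5-fold. The share within 2-fold was 97.2% among genes of 10 to 100 CPM and 3.10% among genes under 1 CPM, and it was 54.2% among long noncoding RNAs. The estimated fold change was under 0.5 on the log2 scale for 95.5% of genes, with a median size of 0.11. Levels varied about as much between pools in both groups, with a median SD of 0.21 at 25 ng/bee and 0.19 in the control on the log2 scale.

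**Figure D1:**
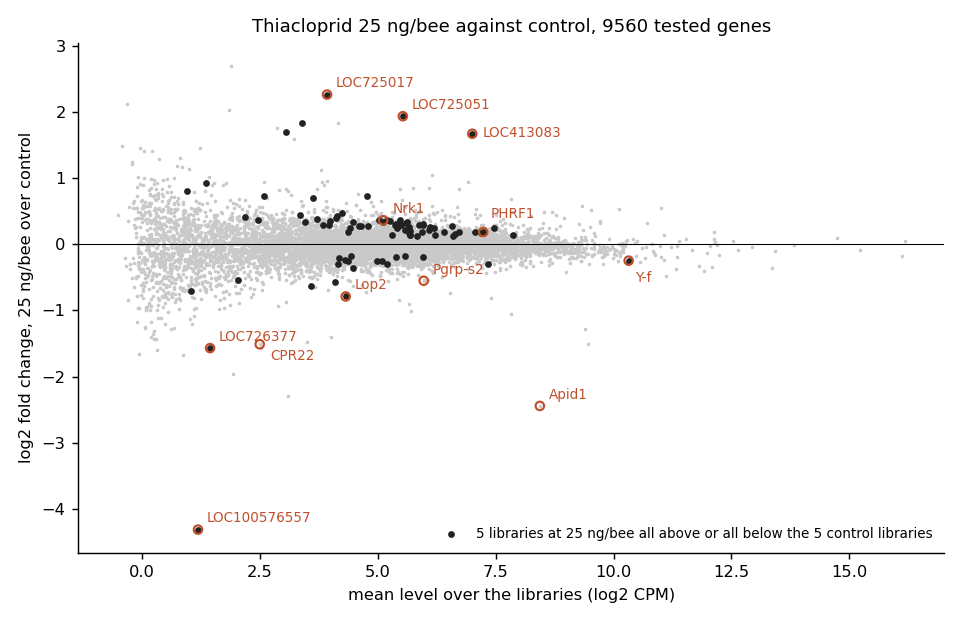
Log2 fold change at 25 ng/bee over the control (vertical axis) against mean level in log2 CPM (horizontal axis) for the 9560 tested genes, 1 grey point each. Black points are the 88 genes whose libraries do not overlap between the groups, and 12 genes are ringed and named, from LOC725017 at 2.26 to LOC100576557 at -4.31.

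How many genes fell under an unadjusted p of 0.05 depended on which libraries set the spread. With only the 10 libraries of the comparison in the fit, 491 of 9341 genes (5.26%) did so, against an average of 467 if no gene differed. Of these, 307 (3.29%) were higher and 184 (1.97%) lower at 25 ng/bee, so that 62.5% were higher, against 43.0% with all 15 libraries. With the 14 libraries whose labels start with 20190809, which leaves out replicate 1 at 250 ng/bee, 60.5% of 511 genes were higher. That left-out library held 29208991 counts, the most of all 15. None of these fits passed a gene, with a smallest adjusted p of 0.457 for the 10 libraries and 0.862 for the 14 libraries in edgeR.

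The nicotinic receptor subunits, the binding targets of thiacloprid, went both ways and none passed. Of 10 tested subunits, 4 had a log2 fold change above 0 and 6 below, with a median of -0.05 beside -0.01 over all genes, and all 10 intervals lay within 2-fold. The subunit nAChRb1 had 7.06, 8.86, 5.27, 4.38 and 7.46 CPM at 25 ng/bee and 7.28, 12.2, 9.03, 6.07 and 7.92 CPM in the control, a log2 fold change of -0.36 ± 0.24 (SE), the lowest of the list. The highest was nAChRa9 at 0.35 ± 0.27, with 7.38, 7.95, 6.703, 15.2 and 9.99 CPM at 25 ng/bee and 9.301, 9.97, 7.04, 6.998 and 3.76 CPM in the control. In both genes the groups overlapped. Replicate 4 at 25 ng/bee held both the lowest nAChRb1 and the highest nAChRa9 of the 10 libraries.

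Among the alpha subunits, the well-expressed nAChRa8 had 28.5 ± 6.10 FPKM at 25 ng/bee and 30.9 ± 5.40 FPKM in the control (SD, n = 5 each), where FPKM corrects for transcript length so that genes can be ranked. Next came nAChRa2 with 19.1 ± 4.57 FPKM at 25 ng/bee and 21.8 ± 4.02 FPKM in the control, and then nAChRa3 with 7.24 ± 1.72 FPKM at 25 ng/bee and 7.43 ± 0.81 FPKM in the control. The other 7 subunits lay at 1.03 to 6.53 FPKM at 25 ng/bee and at 1.16 to 5.19 FPKM in the control, with nAChRa9 on top and nAChRa4 at the bottom. The ranges of mean ± SD of neighbours in this order overlapped in both groups, apart from the steps between nAChRa2 and nAChRa3 and between nAChRa6 and nAChRa4. The log2 fold change was -0.10 ± 0.11 for nAChRa8, -0.18 ± 0.13 for nAChRa2 and -0.03 ± 0.12 for nAChRa3. The summed level of the 10 subunits was 271, 308, 223, 212 and 290.1 CPM at 25 ng/bee and 264, 271, 283, 253 and 287 CPM in the control, so the control lay inside the range of the exposed pools. Without replicate 4 at 25 ng/bee the list's median turned to 0.05. AChE-2, an acetylcholinesterase gene, had a log2 fold change of -0.06 ± 0.13.

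Transmitter receptors of the amine and amino acid classes were slightly below the control almost throughout, without passing. Of 16 tested receptor genes, 15 had a log2 fold change below 0, with a median of -0.10, and all 16 missed the threshold. The list holds receptors for dopamine, serotonin, octopamine, tyramine, glutamate, GABA and histamine. Dop3, a dopamine receptor, was lowest at -0.43 ± 0.42, and its 25 ng/bee libraries had 3.69, 7.74, 8.901, 0.747 and 5.16 CPM against 4.95, 12.1, 8.09, 5.73 and 4.77 CPM in the control. The metabotropic glutamate receptor mGlutR1 had 35.9, 53.7, 35.5, 33.1 and 40.4 CPM at 25 ng/bee and 42.2, 45.01, 43.99, 43.7 and 60.9 CPM in the control, a log2 fold change of -0.25 ± 0.14. Both genes overlapped between the groups. The exception above 0 was Hiscl1, a histamine-gated chloride channel, at 0.01 ± 0.17.

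A single pool stood out in these receptors. Replicate 4 at 25 ng/bee was the lowest of the 10 libraries for 11 of the 16 receptor genes, for 5 of 9 synaptic genes and for 5 of 10 nicotinic subunits, beside 16.1% of all tested genes. The library was picked out after its values were seen. Without it the receptor median was -0.04, beside -0.10 with it. The synaptic list (vesicle release and active zone, 8 of 9 below 0) had a median of -0.12 without it and -0.13 with it, and medians of -0.19 to -0.05 when any 1 library was left out, the last of these without control replicate 5.

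In the synaptic list, Nrx-1, a neurexin that links the membranes of a synapse, had 7.17, 9.27, 8.57, 3.84 and 5.39 CPM at 25 ng/bee and 6.45, 13.3, 8.68, 9.11 and 8.94 CPM in the control, with a log2 fold change of -0.43 ± 0.24. The neuroligin genes NLG-3, NLG-4 and NLG-5, whose proteins bind neurexins across the cleft, had -0.14 ± 0.19, -0.29 ± 0.24 and -0.25 ± 0.25. Cac, a presynaptic calcium channel subunit that drives release, had 0.08 ± 0.17, and the active zone gene brp had -0.01 ± 0.17. All 9 intervals of this list lay within 2-fold. Among learning and foraging genes, For, the cGMP-dependent kinase tied to foraging in bees, was lowest at -0.30 ± 0.20, and Camkii had -0.07 ± 0.12, with 5 of 6 members below 0 and a median of -0.07, or 0.02 without replicate 4 at 25 ng/bee.

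Of the 7 cytochrome P450 genes matched by symbol or synonym, all 7 had a log2 fold change below 0, beside 52.2% of all tested genes. The median of the 7 was -0.28, and none passed. The reference table lists LOC551028 as CYP6AS13, the most abundant of them per length. It had 390.1, 327, 420.4, 305 and 255 CPM at 25 ng/bee and 353, 447, 469, 416 and 353 CPM in the control, a log2 fold change of -0.26 ± 0.16. Cyp4g11 was lowest of the 7 at -0.52 ± 0.46, with 80.1, 36.6, 26.3, 20.3 and 20.5 CPM at 25 ng/bee against 96.4, 25.7, 52.3, 52.9 and 35.6 CPM in the control. Its replicates 1 in both groups were by far the highest of their group. CYP6AQ1 had -0.40 ± 0.32, Cyp6as5 -0.28 ± 0.22, LOC551179 (listed as CYP15A1) -0.41 ± 0.60, LOC724946 (listed as CYP6AS11) -0.08 ± 0.26 and Cyp314a1, for the last step of moulting hormone synthesis, -0.26 ± 0.18. Intervals within 2-fold were found for 4 of the 7. The list's median stayed between -0.40 and -0.21 under all alternatives tried, and CYP9Q genes, known from bees as thiacloprid-metabolizing enzymes, were not matched and are not analysed here. Glutathione transferases GstD1 and GstS1 had 0.11 ± 0.19 and -0.06 ± 0.15. GstS4 was lowest of the 3 tested at -0.30, with -0.72 to 0.01 when 1 library was left out.

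A run of neighbouring genes on chromosome 13 held, in LOC413083 and LOC112935903, the widest gaps between the groups (as a ratio of the nearest pools) of the 88 genes that did not overlap, although no member passed. The genes carry no symbol and no function in the tables used here, and they were picked out after their values were seen, so no weight rests on their number. LOC413083 (chromosome 13, 10556643 to 10560215, 6 exons at most) had 96.7, 102, 94.6, 133 and 137 CPM at 25 ng/bee and 21.7, 43.8, 62.6, 19.98 and 29.7 CPM in the control. Every exposed pool was at least 1.51 times the highest control pool. Its log2 fold change was 1.67 ± 0.70 with all 15 libraries and 1.67 ± 0.28 with only the 10 (adjusted p = 0.998 and 0.457 in edgeR).

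The genes beside it showed the groups in the same order. LOC112935903 (chromosome 13, 10547007 to 10550169) had 8.64, 12.8, 8.46, 16.3 and 7.46 CPM at 25 ng/bee and 1.95, 1.87, 4.93, 2.11 and 4.37 CPM in the control, again without overlap. Between them lies LOC102653899 (chromosome 13, 10551323 to 10554522), with 15.8, 21.9, 12.6, 29.03 and 11.02 CPM at 25 ng/bee and 3.15, 1.75, 13.8, 2.19 and 4.87 CPM in the control, where control replicate 3 overlapped the exposed pools. LOC551845 (chromosome 13, 10560537 to 10583286), the next gene on the other side, had 4.32, 6.72, 6.81, 3.84 and 5.28 CPM at 25 ng/bee and 0, 3.37, 3.28, 0.675 and 1.52 CPM in the control. The log2 fold changes were 1.83 ± 0.71, 1.83 ± 0.75 and 1.69 ± 0.96. All 4 genes lie on the plus strand with gaps of 321 to 2120 bases between them.

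The edges of this run were set where the separation ended, after the values were seen. On one side lies LOC724946, the CYP6AS11 gene named above, 706 bases before LOC112935903, with 9.59, 7.84, 6.15, 7.58 and 4.48 CPM at 25 ng/bee and 7.65, 5.98, 6.92, 9.27 and 7.72 CPM in the control. On the other side LOC412934 had a log2 fold change of 0.04 ± 0.17, and LOC724962, beyond CYP6AS11, had -0.04 ± 0.25. Coordinates are those of the deposited tables and match Amel_HAv3.1. The 250 ng/bee libraries, which share the control, spread far more. LOC413083 had 425, 513, 4.396, 68.3 and 165 CPM at 250 ng/bee, and LOC112935903 had 25.6, 38.03, 0, 9.12 and 11.1 CPM. Replicate 3 at 250 ng/bee was the lowest of these libraries in all 4 genes. In LOC413083 and LOC112935903, replicates 1, 2, 4 and 5 at 250 ng/bee lay above the highest control pool. In LOC102653899 and LOC551845, replicate 4 at 250 ng/bee also lay below the highest control pool. Whether reads were shared between the 4 genes was not tested.

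**Figure D2:**
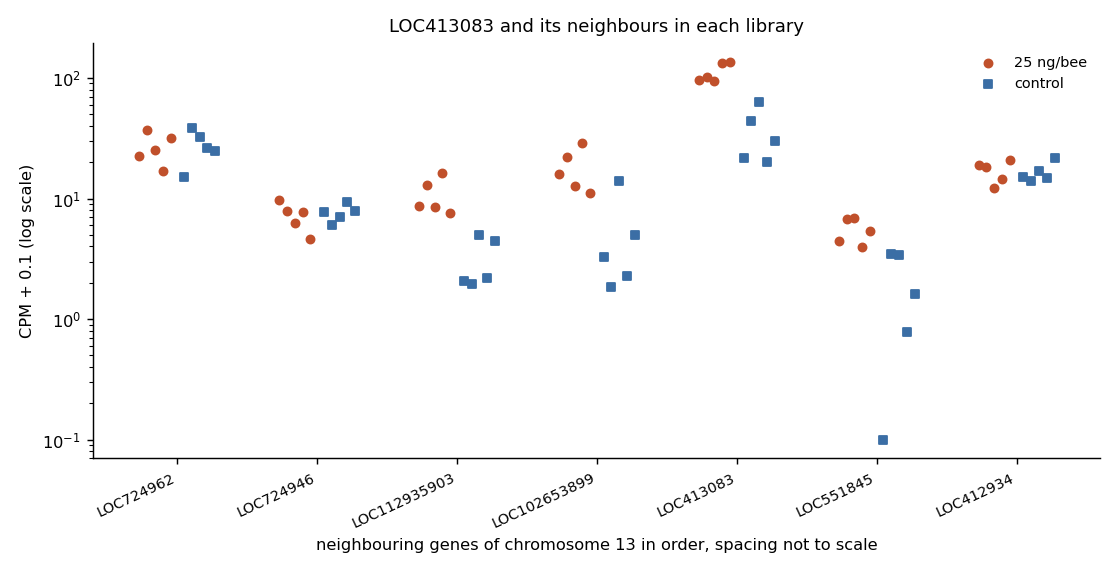
Level of 7 neighbouring genes of chromosome 13 in each library, as CPM + 0.1 on a log scale, with circles for 25 ng/bee left of squares for the control and replicates 1 to 5 in order. LOC112935903, LOC413083 and LOC551845 do not overlap between the groups, LOC102653899 overlaps through 1 control pool, and the genes on either side of the run overlap throughout.

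Immune genes went both ways. Among 8 genes of recognition, signalling and melanization, 3 were above and 5 below 0, with a median of -0.03. The peptidoglycan recognition protein genes Pgrp-s2 and PGRP-S3, which sense bacterial cell walls, had fold changes of opposite sign, and neither passed. Pgrp-s2 had 63.6, 47.4, 45.4, 38.9 and 66.9 CPM at 25 ng/bee and 65.6, 73.9, 83.9, 68.5 and 92.3 CPM in the control, a log2 fold change of -0.55 ± 0.18. PGRP-S3 had 22.03, 17.2, 43.95, 17.2 and 21.2 CPM at 25 ng/bee and 12.8, 20.6, 14.2, 17.6 and 13.7 CPM in the control, a log2 fold change of 0.63 ± 0.23. The value of 43.95 CPM in replicate 3 at 25 ng/bee was far above the other exposed pools. A single exposed pool of Pgrp-s2, replicate 5, lay above the lowest control pool.

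The antimicrobial peptides varied more between pools than between groups. Apid1, which encodes apidaecin, had 35.8, 96.6, 430.3, 101 and 78.4 CPM at 25 ng/bee and 80.1, 299, 50.3, 3538 and 71.8 CPM in the control, and without control replicate 4 its log2 fold change of -2.44 ± 1.03 became 0.25. Def1, which encodes a defensin, was among the most abundant genes, with 12971 to 16487 CPM at 25 ng/bee and 5389 to 21691 CPM in the control, and had -0.01 ± 0.39. Def2 had no count in either group. The signalling genes Dl and Imd and the melanization gene PPO had 0.03 ± 0.14, -0.04 ± 0.11 and 0.03 ± 0.24.

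Neuropeptide genes spread more widely than most lists. Of 8 tested, 3 were above and 5 below 0, with a median of -0.16, or -0.02 without replicate 4 at 25 ng/bee, and none passed. Apime-ASTA, which encodes allatostatin A, had 10.2, 18.4, 16.6, 10.1 and 15.6 CPM at 25 ng/bee and 16.9, 22.3, 22.99, 15.8 and 21.3 CPM in the control, a log2 fold change of -0.48 ± 0.19. The feeding peptide gene NPF had 6.32, 6.32, 5.27, 0.534 and 5.16 CPM at 25 ng/bee and 10.8, 4.61, 7.51, 6.83 and 5.79 CPM in the control, at -0.60 ± 0.44, and replicate 4 at 25 ng/bee was again the lowest pool. Crz, for corazonin, had 0.45 ± 0.36, the tachykinin gene Tk -0.23 ± 0.19, and Pburs, for a bursicon subunit, -0.37 ± 0.23. Pban and Eth, at 0.92 (95% interval -1.41 to 3.25) and 0.87 ± 0.87, were at 0 in at least 1 pool, and the interval of Pban ran beyond 2-fold both ways.

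Hormone genes lay on both sides of 0, and none passed. Of 11 genes of juvenile hormone, ecdysone and insulin signalling, 4 were above and 7 below 0, with a median of -0.03, and 9 intervals lay within 2-fold. Kr-h1, a transcription factor induced by juvenile hormone, had 0.13 ± 0.32, and the ecdysone receptor gene Ecr had -0.02 ± 0.12. E75, induced by ecdysone, had 0.06 ± 0.15. InR-2 was highest of the list at 0.29. LOC724216, listed as jhamt, a juvenile hormone acid methyltransferase, was lowest at -0.56, with -1.28 to -0.13 when 1 library was left out. LOC724216 had 16.2, 37.5, 0, 13.8 and 5.39 CPM at 25 ng/bee and 8.78, 7.73, 44.9, 26.1 and 20.8 CPM in the control, with replicate 3 at 25 ng/bee at 0. Vg, the yolk precursor vitellogenin, had 175, 55.01, 32.3, 83.4 and 162 CPM at 25 ng/bee and 33.01, 37.03, 213, 62.7 and 134 CPM in the control, and its log2 fold change of 0.09 ± 0.57 was small beside that spread.

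Among genes with a symbol, Nrk1 had the lowest p on the higher side. It encodes a nicotinamide riboside kinase, an enzyme of NAD synthesis, and lies on chromosome 9, 11436038 to 11436628. Nrk1 had 36.1, 35.8, 31.6, 38.4 and 40.97 CPM at 25 ng/bee and 29.9, 31.9, 25.5, 29.7 and 25.3 CPM in the control, a log2 fold change of 0.36 ± 0.10 with an interval of 0.14 to 0.58 (adjusted p = 0.998 in edgeR). All 5 exposed pools were above the control mean, and 1 of them, replicate 3, lay below the highest control pool. Of 8 respiratory chain genes, 7 were above 0 with a median of 0.06, all 8 intervals lay within 2-fold, and Ndufs5, a complex I subunit, was highest at 0.20 ± 0.13. Of 7 cytosolic ribosomal protein genes, 2 were above and 5 below 0, with a median of -0.05.

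Chaperone and antioxidant genes did not separate the groups. Hsp90, the stress chaperone, had 1039, 1737, 3751, 1905 and 1690.2 CPM at 25 ng/bee and 2007, 2181, 1383, 1037 and 1492 CPM in the control, at 0.32 ± 0.31, with 1 high pool at 25 ng/bee, replicate 3. Cdc37, a partner of Hsp90 that loads kinases onto it, had 0.21 ± 0.10. The superoxide dismutases Sod1 and Sod2, which remove superoxide, had 0.02 ± 0.13 and -0.05 ± 0.10, and all 5 antioxidant genes had intervals within 2-fold. The list of RNA editing, DNA methylation and chromatin genes had a median of 0.11, with the DNA methyltransferase genes Dnmt3 at 0.21 ± 0.20 and Dnmt1a at 0.11 ± 0.14.

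PHRF1, a PHD and RING finger gene of that list, was the sole gene with a symbol whose exposed pools all lay above all control pools, as 67 genes did in all (0.701%). It had 151, 153, 149, 158 and 163 CPM at 25 ng/bee and 140.0, 140.0, 127, 129 and 144 CPM in the control, a log2 fold change of 0.19 ± 0.09. The gap between the groups was small, with 149 CPM in the lowest exposed pool against 144 CPM in the highest control pool. In the other direction, where 21 genes (0.22%) lay wholly below the control, 2 had a symbol. Lop2, a long-wavelength opsin, had 15.2, 7.33, 12.97, 7.79 and 13.2 CPM at 25 ng/bee and 18.4, 17.5, 27.8, 17.3 and 16.8 CPM in the control, a log2 fold change of -0.79 ± 0.40. Y-f, of the yellow protein family, had 1277, 1269, 1148, 992 and 1097 CPM at 25 ng/bee and 1313, 1404, 1430.4, 1398 and 1320.3 CPM in the control, at -0.25 ± 0.13.

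The other listed opsin genes did not share the fold change of Lop2. Lop1, the main long-wavelength opsin of the compound eye, had 3502 to 8446 CPM at 25 ng/bee and 2626 to 6276 CPM in the control, and -0.02 ± 0.32. The blue and ultraviolet opsin genes Blop and Uvop had 0.04 ± 0.28 and 0.09 ± 0.22. At 250 ng/bee, where the same controls apply, Lop2 was at 0.54 ± 0.39 and Y-f at -0.07 ± 0.13, beside -0.79 ± 0.40 and -0.25 ± 0.13 at 25 ng/bee.

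**Figure D3:**
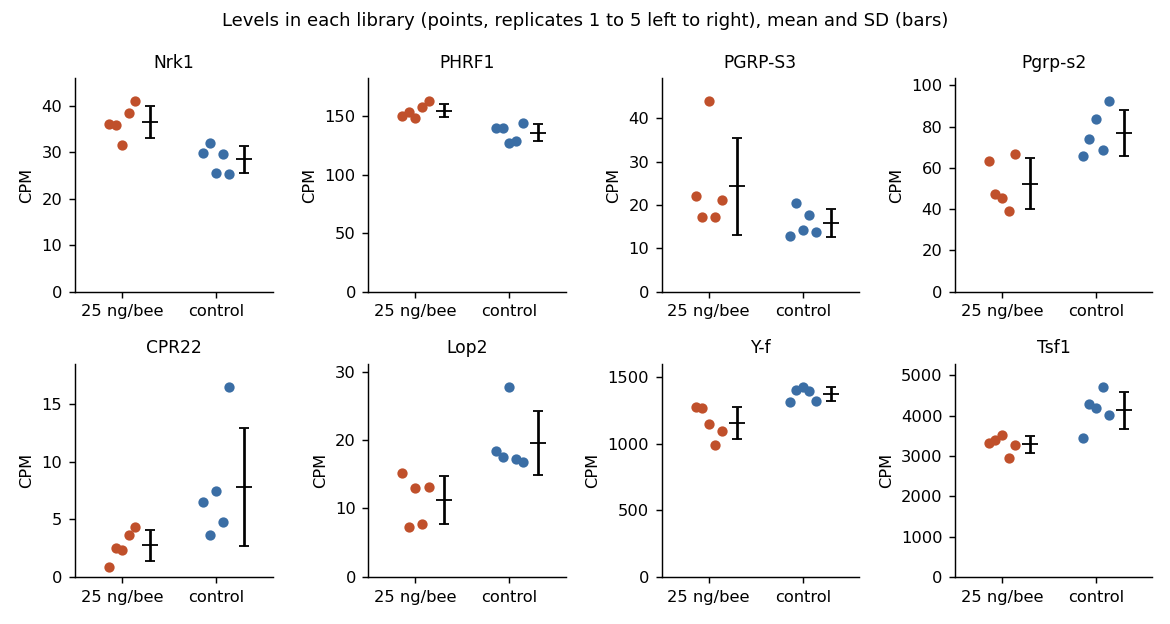
CPM of 8 genes in each library, 25 ng/bee left of the control, with replicates 1 to 5 from left to right and the mean ± SD beside them (n = 5 each). PHRF1 lies wholly above the control and Lop2 and Y-f wholly below it, and the other 5 genes overlap through 1 or more pools.

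Genes of smell and cuticle went both ways. Of 16 cuticle proteins, 6 were above and 10 below 0, with a median of -0.13, or 0.02 without control replicate 5. CPR22 had 0.843, 2.55, 2.31, 3.63 and 4.36 CPM at 25 ng/bee and 6.53, 3.62, 7.51, 4.81 and 16.6 CPM in the control, a log2 fold change of -1.51 ± 0.44, with control replicate 5 at the top. CPR4 was highest in the list at 0.30 ± 0.18. Of 12 odorant-binding proteins, carriers of odour molecules in the antenna, 8 were below 0 with a median of -0.11, which turned to 0.06 without control replicate 5. Obp15 was highest at 0.97 ± 0.71, on 0 to 3.16 CPM over the 10 libraries.

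Of 4 tested chemosensory proteins, 2 were above and 2 below 0, with a median of 0.02. CSP3 was highest, with 2658, 2007, 1727, 4063 and 2435 CPM at 25 ng/bee and 2315, 2019, 1316, 1883 and 1309 CPM in the control. Its log2 fold change was 0.54 ± 0.24, and replicate 4 at 25 ng/bee was its highest pool. CSP2 was lowest at -0.28. Of 7 odorant and gustatory receptors above the low-count filter, 3 were above and 4 below 0, with a median of -0.05. Or41 was highest at 0.66. Or30 was lowest at -0.51 ± 0.24, with 3.297 to 4.18 CPM at 25 ng/bee and 3.98 to 6.499 CPM in the control. In these 4 lists together no gene passed.

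Summed over their lists, genes of hypopharyngeal gland, muscle and fat body were found in all pools, and the gland and muscle sums varied strongly. Not every listed gene was found: Hex70c of the fat body list had no count in either group. Whether transcripts of the listed genes came from those tissues or from the brain was not tested. Products of the hypopharyngeal gland (royal jelly proteins and alpha-glucosidases) summed to 183357, 101102, 194231, 147393 and 102069 CPM at 25 ng/bee and to 35842, 269468, 282213, 120001 and 95629 CPM in the control. The control pools lay both above and below all exposed pools. Mrjp1, the main royal jelly protein gene, had -0.17 ± 0.59 and Hbg3 -0.09 ± 0.59, with intervals of -1.41 to 1.07 and -1.34 to 1.17. Of 12 gland genes 9 were below 0, with a median of -0.08 that turned to 0.25 without control replicate 3.

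Muscle genes summed to 109, 224, 268, 423 and 164 CPM at 25 ng/bee and to 87.5, 78.8, 134, 142 and 626 CPM in the control, where replicate 5 alone was high. The troponin C gene TpnCIIIa had 28.5, 79.6, 109, 138 and 50.7 CPM at 25 ng/bee and 9.08, 14.8, 18.1, 33.5 and 207 CPM in the control, at 0.53 ± 0.73. The muscle median was 0.20 over 5 genes. It was -0.16 with replicate 4 at 25 ng/bee left out, and 1.13 without control replicate 5. Fat body and haemolymph genes summed to 3140 to 3585 CPM at 25 ng/bee and 3530 to 4887 CPM in the control, a sum set mainly by Tsf1, the iron carrier transferrin. Tsf1 had 3326, 3399, 3514, 2946 and 3261 CPM at 25 ng/bee and 3434, 4280.5, 4195, 4719.6 and 4019 CPM in the control, at -0.33 ± 0.15, and the list's median was -0.30 (4 of 5 below 0), or 0.01 without control replicate 5. The storage protein Hex70a had -0.53 ± 0.41. The part of these tissues in the other results was not tested.

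Over the 25 lists with at least 3 tested genes, 20 medians were below 0 and 5 above. Of the 184 list genes, 123 (66.8%) were below 0, beside 52.2% of all tested genes, and 10 (5.43%) had an unadjusted p under 0.05, beside 2.46% of all tested genes. The lists were chosen with earlier results of these data known, and 10 of all 316 tested genes with a symbol had such a p. These shares are therefore no test of the lists. Of the 25 medians, 19 changed sign under at least 1 alternative. The 6 that did not were those of transmitter receptors, synaptic genes, neuropeptides, P450s, cytosolic ribosomal proteins, and RNA editing, DNA methylation and chromatin. Lists share a scaling and libraries, so their directions are not independent of each other. Fold changes also went with transcript length over all genes. The median was 0.06 for genes under 1000 nt and -0.05 for genes over 4000 nt. After a correction of each library for length these medians were 0.01 and -0.01. That follows from the correction itself, which takes out each library's trend with length. Receptor and synaptic genes are long, with median lengths of 3754 and 5916 nt, and odorant-binding and ribosomal genes short, with 644 and 565 nt. The medians of these short lists were also below 0, at -0.11 and -0.05. Over the alternatives that kept every control and 25 ng/bee library, among them the length correction, the receptor median was -0.11 to -0.07 and the synaptic median -0.13 to -0.09. The part of length in the list directions was not tested.

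**Figure D4:**
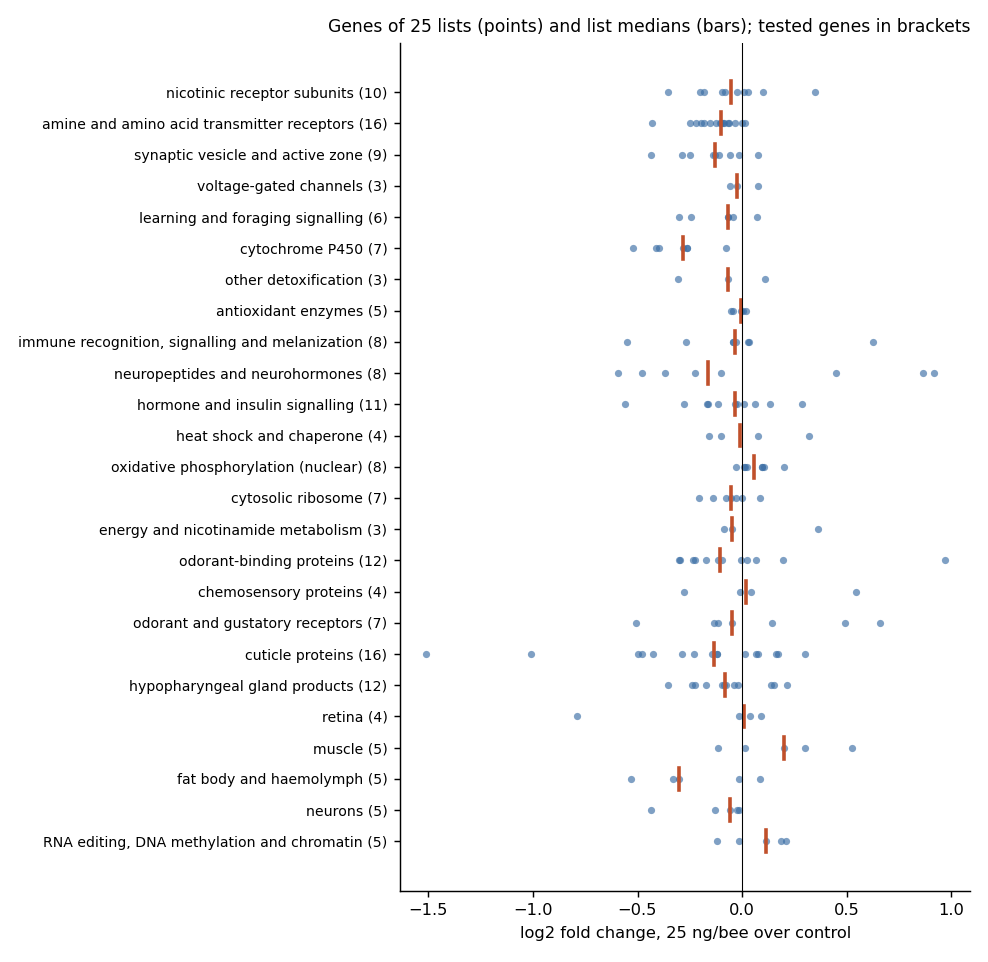
Log2 fold change at 25 ng/bee over the control of each tested gene in 25 lists (points) with the list's median (bar), and the number of tested genes in brackets. Medians lie between -0.30 for fat body and haemolymph and 0.20 for muscle, and no point passed the test.

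Of the 88 genes whose pools did not overlap in either direction (0.921%), 85 have a locus identifier alone. The 67 higher genes had log2 fold changes of 0.13 to 2.26 with a median of 0.29, and the 21 lower genes had -4.31 to -0.17 with a median of -0.30. In most of them the groups touched: a gap over 10% between the nearest pools was found in 5 of the higher and 3 of the lower genes. LOC725017 (chromosome 6, 3658724 to 3664761) had 16.02, 12.4, 17.3, 29.5 and 14.7 CPM at 25 ng/bee and 0.675, 1.99, 9.85, 2.78 and 3.86 CPM in the control, a log2 fold change of 2.26 ± 0.88. LOC725051 (chromosome 11, 15078747 to 15085466) had 41.2, 56.9, 29.7, 85.5 and 93.7 CPM at 25 ng/bee and 6.83, 6.48, 28.98, 16.8 and 21.4 CPM in the control, at 1.94 ± 0.65.

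On the lower side, LOC726377 (chromosome 4, 443959 to 445789) had the lowest p of all genes. It had 2.42, 1.32, 0.769, 0.747 and 1.61 CPM at 25 ng/bee and 3.45, 3.12, 3.75, 3.71 and 6.499 CPM in the control, a log2 fold change of -1.57 ± 0.39 (unadjusted p = 0.000983, adjusted p = 0.998 in edgeR). The long noncoding RNA gene LOC100578585 had 6.32, 5.195, 8.46, 7.47 and 7.12 CPM at 25 ng/bee and 4.73, 3.86, 3.28, 3.88 and 5.08 CPM in the control, at 0.72 ± 0.22. LOC100576557 was at 0 in 3 exposed pools and at 0.59 to 6.98 CPM in the control pools, with a fitted value of -4.31, or -5.34 without replicate 5 at 25 ng/bee. These genes have no function in the tables used here.

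Single transcripts were tested on log2(FPKM + 0.5) with limma, and none of 16556 passed with all 15 libraries (0%, smallest adjusted p = 0.537). At an unadjusted p under 0.05 there were 639 (3.86%), against an average of 828 if none differed. With only the 10 libraries, 10 of 14894 passed (0.0671%), of which 3 rose and 7 fell at 25 ng/bee, and 608 (4.08%) had an unadjusted p under 0.05. Of these 10, 8 were listed at 0 in at least 1 of the 10 libraries. The same held for 33.8% of the 16556 transcripts tested with all 15 libraries, a set that differs from the 14894. StringTie, named in the submitters' processing notes, divides a gene's reads among its transcripts, and a listed 0 can be a failed estimate, so each library's value is given without a fold.

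The transcript XM_394618.6 of LOC411144 (chromosome 6, 15078679 to 15080347) was listed at 0 in all 5 libraries at 25 ng/bee and at 28.6, 16.6, 16.5, 23.9 and 20.4 FPKM in the control. A longer transcript of the same gene, XM_026441129.1, ran the other way, with 12.6, 4.87, 11.2, 15.3 and 9.01 FPKM at 25 ng/bee and 0, 0, 3.76, 0 and 0 FPKM in the control. The gene as a whole had a log2 fold change of -0.10 ± 0.11 in counts. In the 250 ng/bee libraries XM_394618.6 was listed at 0 in 3 of 5 and at 23.1 and 27.0 FPKM in the others.

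Other transcripts that passed with the 10 libraries also came from genes with more than 1 transcript. XM_003250320.4, 1 of 10 transcripts of LOC408740, was at 3.66, 1.83, 5.87, 4.67 and 6.49 FPKM at 25 ng/bee and listed at 0 in all 5 control libraries, with -0.12 ± 0.14 for the gene. XM_016914811.2, 1 of 10 of LOC409904, was at 11.2, 5.76, 9.11, 4.65 and 13.6 FPKM at 25 ng/bee and 0, 0.03, 0, 0 and 0.285 FPKM in the control, with 0.17 ± 0.12 for the gene. XM_006566716.3, 1 of 3 of LOC411554, had values in every one of the 10 libraries, 1.26, 1.79, 1.46, 1.196 and 1.18 FPKM at 25 ng/bee and 22.9, 12.2, 14.1, 7.68 and 8.49 FPKM in the control, with 0.02 ± 0.11 for the gene.

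A further transcript with values in all 10 libraries was XM_026444816.1 of LOC413083, the chromosome 13 gene described above. It had 39.9, 46.3, 37.4, 55.1 and 61.7 FPKM at 25 ng/bee and 11.5, 16.2, 22.2, 8.92 and 13.6 FPKM in the control (adjusted p = 0.0377 in limma with the 10 libraries, 0.999 with all 15). The counts of the whole gene did not overlap between the groups either. In the 250 ng/bee libraries it was at 145, 239, 0, 35.9 and 77.3 FPKM. The gene's log2 fold change had an SE of 0.70 with all 15 libraries and 0.28 with the 10.

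**Figure D5:**
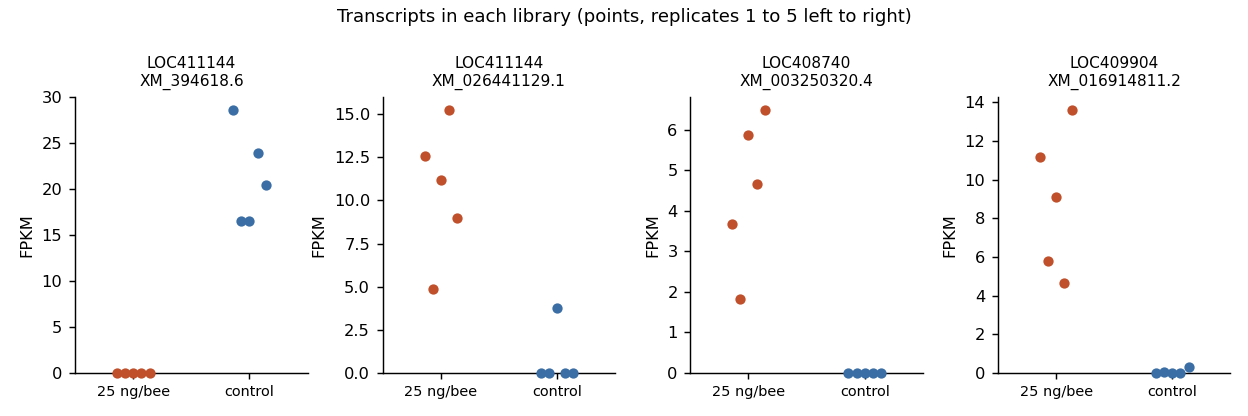
FPKM of 4 transcripts in each library, 25 ng/bee left of the control, replicates 1 to 5 from left to right. XM_394618.6 and XM_026441129.1 of LOC411144 run in opposite directions, and XM_003250320.4 of LOC408740 and XM_016914811.2 of LOC409904 are at 1.83 FPKM or more in all exposed libraries and at 0.285 FPKM or less in the control.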

How the data were processed

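Poly-A RNA of 15 pools of honey bee brains was sequenced with a stranded kit, per the labels' protocols. Tools listed in the submitters' processing notes are DESeq2 1.22.2, StringTie 2.0.2, SAMtools 1.7, HISAT2 2.1.0 and Trimmomatic 0.39. For the alignment's build, and for whether strand was used when counting, the sources used here give nothing. The authors deposited estimated counts per gene, which equal transcript coverage times length over a read length of 75, and transcript tables with FPKM and coverage, per the file headers. Estimated counts were rounded. Of 12112 genes, all matched the Amel_HAv3.1 table and 12069 (99.6%) had its coordinates, and 387 had a symbol.

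Genes that passed filterByExpr (9560, 99.96% of counts) were tested with edgeR 4.0.16 in R 4.3.3 (quasi-likelihood F test, TMM, group as the sole term, all 15 libraries), with Benjamini-Hochberg adjustment over all tested genes. CPM values are TMM-scaled, and fold changes are 25 ng/bee over control. Transcripts at 0.5 FPKM or more in at least 5 libraries were tested with limma 3.58.1 on log2(FPKM + 0.5), which understates changes of low transcripts. Alternatives were DESeq2 1.42.0, limma-voom with sample weights, other scaling, filters, pseudocounts and libraries, a replicate block, a length correction and leaving out each library. Scripts were tested on simulated data.

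Members, 30 gene lists (matched on symbols and synonyms) and tests were chosen with earlier results of these data known. Named genes were the 10 lowest p in each direction with and without a symbol, genes with a symbol whose groups did not overlap, extremes and described members of each list, all nicotinic subunits and P450s, the 8 most variable and 8 most abundant genes with a symbol, and the 3 lowest-p transcripts in each direction. The chromosome 13 run, LOC725017 and the transcripts of the 10-library fit were added after their values were seen. CSP3, Tk, Jhe and Gstcd were each dropped from 1 list that they matched by name alone. The labels describe each replicate as its own pool, and replicate numbers did not pair the libraries.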

Additional observations from a re-analysis of the deposited data

Results flagged for a closer look

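In each group of 5 pools, the highest or lowest value was compared with its nearest neighbour for every gene named in the text and for 5 summed marker lists. A pool was singled out where that gap took more than 0.71 of the group's whole range. This held in 20 of 198 groups. Chance gives about 1 in 20 for unselected, independent groups of normally distributed values. These groups are neither unselected nor independent: some genes were named because they vary between pools, and the sums repeat genes of the lists. The values compared were CPM without a log scale, and whether they are normally distributed was not tested.

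Pools at 25 ng/bee were singled out in the following cases. Apid1 had 430.3 CPM in replicate 3 at 25 ng/bee, against 101 CPM in the next highest pool of its group. Cyp4g11 had 80.1 CPM in replicate 1 at 25 ng/bee, against 36.6 CPM in the next highest pool of its group. LOC725017 had 29.5 CPM in replicate 4 at 25 ng/bee, against 17.3 CPM in the next highest pool of its group. Lop1 had 8446 CPM in replicate 1 at 25 ng/bee, against 4486 CPM in the next highest pool of its group. NPF had 0.534 CPM in replicate 4 at 25 ng/bee, against 5.16 CPM in the next lowest pool of its group. PGRP-S3 had 43.95 CPM in replicate 3 at 25 ng/bee, against 22.03 CPM in the next highest pool of its group. The summed fat body and haemolymph genes had 3139.6 CPM in replicate 4 at 25 ng/bee, against 3499.8 CPM in the next lowest pool of its group.

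Among control pools the cases were these. Apd-1 had 245 CPM in control replicate 1, against 43.99 CPM in the next highest pool of its group. Apd-3 had 46.5 CPM in control replicate 1, against 6.100 CPM in the next highest pool of its group. Apid1 had 3538 CPM in control replicate 4, against 299 CPM in the next highest pool of its group. LOC102653899 had 13.8 CPM in control replicate 3, against 4.87 CPM in the next highest pool of its group. LOC409904 had 456 CPM in control replicate 5, against 351 CPM in the next highest pool of its group. LOC726377 had 6.499 CPM in control replicate 5, against 3.75 CPM in the next highest pool of its group. Lop2 had 27.8 CPM in control replicate 3, against 18.4 CPM in the next highest pool of its group. TpnCIIIa had 207 CPM in control replicate 5, against 33.5 CPM in the next highest pool of its group. TpnI had 217 CPM in control replicate 5, against 27.4 CPM in the next highest pool of its group. TpnT had 189 CPM in control replicate 5, against 22.8 CPM in the next highest pool of its group. mGlutR1 had 60.9 CPM in control replicate 5, against 45.01 CPM in the next highest pool of its group. nAChRa8 had 60.8 CPM in control replicate 2, against 66.2 CPM in the next lowest pool of its group. The summed muscle genes had 626 CPM in control replicate 5, against 142 CPM in the next highest pool of its group.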

How the results depend on the processing

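No gene passed under any of the 18 alternatives run. The number of genes at an unadjusted p under 0.05, 235 as reported, was 588 in limma-voom with sample weights, 491 with only the 10 libraries and 511 with the 14 libraries of the shared label prefix. It ranged from 132, without control replicate 3, to 345, without replicate 3 at 25 ng/bee, and it was 142 and 154 without replicate 4 or 5 at 25 ng/bee. The cause was not tested. With the replicate number as a block it was 325. Same-numbered libraries deviated together only weakly (correlations of -0.04 to 0.13), so the numbers were not taken as pairs. The number of transcripts that passed, 0 as reported, was 10 with only the 10 libraries, 0 with the block and 0 to 1 when 1 library was left out, where the 1 came when replicate 2 of either group was dropped. Non-overlapping genes numbered 88 to 91 and genes with an interval within 2-fold 8372 to 8469. Of the 25 list medians, 2 moved by more than the spread between libraries, those of gland products to 0.25 without control replicate 3 and of muscle to 1.13 without control replicate 5, and 19 of the 25 changed sign under at least 1 alternative. Of the 109 genes followed by name, 33 changed sign under at least 1 alternative, among them Apid1 (0.25 without control replicate 4). Depth limits genes under 1 CPM, of which 3.10% had an interval within 2-fold.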

Other observations

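Some further genes named by the rule, none of which passed in edgeR, lie outside the lists above. A4 had 91.9, 81.7, 47.8, 171 and 204 CPM at 25 ng/bee and 30.8, 64.8, 78.4, 54.3 and 82.3 CPM in the control, a log2 fold change of 0.94 ± 0.46. NOS, the nitric oxide synthase gene, had 79.6, 79.5, 77.6, 54.97 and 63.5 CPM at 25 ng/bee and 68.7, 92.6, 91.5, 75.4 and 86.3 CPM in the control, at -0.22 ± 0.11. In both genes the groups overlapped.

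LOC113219380 and LOC408432 have no symbol in the tables used here. LOC113219380 had 1039, 1304, 1170.3, 1757 and 1231 CPM at 25 ng/bee and 862, 747, 934, 1099 and 852 CPM in the control, a log2 fold change of 0.53 ± 0.17. Its lowest exposed pool, replicate 1, was below the highest control pool, replicate 4. LOC408432 had 44.8, 67.6, 65.3, 33.4 and 53.6 CPM at 25 ng/bee and 69.2, 93.8, 83.4, 66.3 and 72.8 CPM in the control, at -0.54 ± 0.17. Its 2 highest exposed pools were close to the lowest control pool, and 1 of them was above it.

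The cuticle genes Apd-3 and Apd-1 were among the genes with a symbol that varied most between pools. Apd-3 ranged over 0 to 28.7 CPM at 25 ng/bee and 0.623 to 46.5 CPM in the control. Apd-1 ranged over 6.59 to 85.4 CPM at 25 ng/bee and 2.99 to 245 CPM in the control. Control replicate 1 was the highest of the 10 libraries in both. Without it the log2 fold change of Apd-3 was 1.18, against -0.48 with it, and that of Apd-1 was 0.46, against -1.01. The muscle genes TpnT and TpnI ranged over 17.2 to 109.6 and 27.2 to 129 CPM at 25 ng/bee and over 7.05 to 189 and 9.001 to 217 CPM in the control, with control replicate 5 the highest of the 10 libraries in both.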
